A study of Solanum lycopersicum with 6 samples.

Results

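The genes of pectin-modifying enzymes were followed in the exocarp, the outer layer of the tomato fruit, with and without the NAC transcription factor SlNOR-like1. Members were the genes whose deposited description named a pectinesterase, pectin methylesterase, polygalacturonase, pectate lyase, pectin lyase, rhamnogalacturonan enzyme or pectin acetylesterase. The ripening polygalacturonase PG2a (Solyc10g080210) and the ripening pectate lyase PL (Solyc03g111690) were left out of the set. This gave 114 of the 21708 genes listed in any library. They fell into 36 pectinesterases, 16 pectinesterase inhibitors, 29 polygalacturonases, 4 proteins that bind polygalacturonase, 18 pectate lyases and 11 pectin acetylesterases. No description named rhamnogalacturonan.

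The series held 3 libraries of total RNA from wild-type Solanum lycopersicum (WT) and 3 from SlNOR-like1 mutants (nor-like1), a knockout per the title of the series, all from exocarp at the stage labelled MG. The sources used here do not give the cultivar, the mutant allele, the number of mutant lines or the age of the fruit. The labels do not say whether replicate libraries stand for different plants, so the p-values reflect the spread among libraries alone, and this may be technical.

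Pectin is secreted into the plant cell wall with many of its galacturonic acid units methyl-esterified. Pectinesterases remove the methyl groups, and inhibitor proteins block them. The de-esterified chain can bind calcium or be cut by polygalacturonases, which hydrolyse it, and by pectate lyases, which cleave it by elimination, while pectin acetylesterases remove acetyl groups. In tomato fruit these enzymes are known for their part in softening during ripening.

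Total expected counts ran from 11459875 to 17578533 in the WT libraries and from 8503210 to 11023036 in the nor-like1 libraries, so every WT library was deeper. Levels are given in FPKM, fragment counts scaled by transcript length and library depth, which allows levels of different genes to be compared. Fold changes are nor-like1 over WT on the log2 scale, with their standard error (SE). The SlNOR-like1 transcript (Solyc07g063420.3) measured 83.78, 75.19 and 81.17 FPKM in WT replicates 1 to 3 and 15.99, 10.93 and 11.72 FPKM in the nor-like1 replicates in the same order (log2 fold change -2.61, SE 0.162; edgeR quasi-likelihood adjusted p = 0.000532). Of 7 epidermis markers, 6 were listed, with CER6, of wax synthesis, at 117 to 248 FPKM; SHN3 was not listed. The 6 summed to 233 to 293 FPKM in WT and 316 to 360 FPKM in nor-like1, but without CER6 the sums of the genotypes overlapped. CER6 was called higher in nor-like1, 2 markers were called lower and 3 were not called. Those called lower were GPAT6, with means of 25.2 FPKM in WT and 10.1 FPKM in nor-like1, and CYP86A69, with 29.8 and 17.1 FPKM. Vascular markers (18 genes) summed to 91.7 to 101 FPKM in WT and 78.1 to 124 FPKM in nor-like1, with 1 called higher and 1 lower among 7 tested. Genes described as F-box proteins with a phloem protein 2 name held most of this sum. The sieve element occlusion genes were at or below 0.39 FPKM. A xylem cysteine proteinase (Solyc04g080873.2) measured 17.9 to 19.8 FPKM in WT and 23.7 to 29.3 FPKM in nor-like1. Seed markers (19 genes) summed to 25.1 to 40.0 FPKM in WT and 17.9 to 22.8 FPKM in nor-like1, with none called among 5 tested. An oleosin gene of this list (Solyc06g060840.1) measured 12.8 FPKM in WT replicate 1, the library with the highest sum, and at most 1 FPKM in any other library.

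Ripening markers differed between libraries of the same genotype. ACO1, which makes ethylene, measured 181, 358 and 1153 FPKM in WT replicates 1 to 3 and 1046 to 1376 FPKM in nor-like1, so WT replicate 3 lay within the nor-like1 range. E8, another ripening gene, measured 694, 87.7 and 72.1 FPKM in WT and 172, 15.8 and 7.63 FPKM in nor-like1. Of 15 ripening markers 14 were listed, with PL called higher and CNR called lower, and they summed to 1259 to 2105 FPKM in WT and 1633 to 2666 FPKM in nor-like1. WT replicate 3 was the WT library nearest to nor-like1 for 2244 of the 3585 genes called different in all, which is 62.6%, and for 20 of 24 called members, which is 83.3%. Without WT replicate 3, ACO1 was called higher in nor-like1 (log2 fold change 2.16; adjusted p = 0.00648), against 1.12 and 0.247 with all libraries. For the members described, values without WT replicate 3 are given where they change a call or move the fold by over 1.5 times. The part of ripening state in the results was not tested. In bulk tissue, fewer cells of a type and less RNA per cell cannot be told apart.

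Of the 114 members, 59 had enough counts to be tested. In nor-like1, 15 of the 59 rose and 9 fell at an adjusted p below 0.05 (edgeR quasi-likelihood test, Benjamini-Hochberg over all genes tested), and 35 did not pass. Over all 16380 genes tested, 21.9% passed, 10.5% higher and 11.4% lower. Without WT replicate 2 the members' counts were 8 higher and 6 lower, and without WT replicate 3 they were 24 higher and 10 lower. The counts over all genes also moved on leaving out 1 library, and were likewise highest without WT replicate 3. The median log2 fold change of the 59 tested members was 0.32, against -0.01 over all genes tested. At least 2-fold changes were called for 12 members higher and 7 lower, where 8.36% of all genes tested passed that rule. The 2 genotypes did not overlap in FPKM for 32 tested members, the 24 called ones included, while 42.8% of all genes tested did not overlap. The other 55 members were too low for the test. Of these, 46 stayed below 1 FPKM in every library, and the highest value in any library was 7.39 FPKM.

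The pectinesterases held most of the members' summed FPKM, and this sum was lower in nor-like1. Summed over the class, FPKM was 3373, 3302 and 2745 in the WT libraries and 1303, 1388 and 1461 in the nor-like1 libraries. Mean sums were 3140 ± 344 in WT and 1384 ± 78.8 in nor-like1 (SD, n = 3 each), with no overlap. Of 36 pectinesterases 19 were tested, of which 6 rose, 4 fell and 9 did not pass, and the median log2 fold change was 0.87. The class sum was thus lower in nor-like1 although 6 genes rose and 4 fell, and a single gene carried most of the WT sum.

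That gene was PME1 (Solyc07g064170.3), the major pectinesterase of the fruit. It measured 2695, 2620 and 1976 FPKM in the WT libraries and 657, 503 and 548 FPKM in the nor-like1 libraries. The lowest WT library lay far above the highest nor-like1 library. Group means were 2430 ± 395 and 569 ± 79.4 FPKM (SD, n = 3 each), a 4.21-fold fall (log2 fold change -2.07, SE 0.192; adjusted p = 0.00225). PME1 alone made up 79.9%, 79.3% and 72.0% of pectinesterase FPKM in the WT libraries and 50.4%, 36.2% and 37.5% in the nor-like1 libraries. Of the FPKM of all 114 members it held 58.6% to 69.8% in WT and 22.0% to 31.0% in nor-like1.

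PME2.1 (Solyc07g064180.4), the pectinesterase gene beside PME1 in the RefSeq annotation, measured 307, 298 and 198 FPKM in WT and 65.3, 47.7 and 51.9 FPKM in nor-like1. The genotypes did not overlap (log2 fold change -2.27, SE 0.219; adjusted p = 0.00235). The ratio of PME1 to PME2.1 FPKM was 8.77, 8.78 and 9.96 in WT and 10.1, 10.5 and 10.5 in nor-like1. Every expected count of both genes was a whole number. Together they summed to 3003, 2918 and 2175 FPKM in WT and 723, 551 and 600 FPKM in nor-like1. PME3 (Solyc07g064190), the next gene of this group, was at 0 counts in WT and had 10 counts over the nor-like1 libraries, too few to test.

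Another 2 pectinesterases fell. Solyc12g098340.2, a pectinesterase of lower level, measured 24.3, 21.0 and 18.3 FPKM in WT and 3.85, 3.93 and 3.05 FPKM in nor-like1, a 5.77-fold fall with no overlap (log2 fold change -2.53, SE 0.177; adjusted p = 0.000847). Solyc11g070175.1 measured 107, 106 and 96.4 FPKM in WT and 74.8, 68.1 and 84.4 FPKM in nor-like1 (log2 fold change -0.43, SE 0.118; adjusted p = 0.0418). The genotypes lay close to each other, and this call was lost without replicate 1 or 2 of WT or any one replicate of nor-like1 (adjusted p 0.0563 to 0.133) and with upper-quartile factors (0.0516). It was also lost with replicate number added to the model (0.0955).

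PMEU1 (Solyc03g123630.4), known in tomato as a pectinesterase expressed in many tissues, went the other way. It measured 121, 119 and 195 FPKM in the WT libraries and 314, 445 and 470 FPKM in the nor-like1 libraries. Every nor-like1 library was above every WT library, and the means of 145 ± 43.1 and 410 ± 83.5 FPKM (SD, n = 3 each) were 2.88-fold apart (log2 fold change 1.53, SE 0.242; adjusted p = 0.00818). Its share of pectinesterase FPKM was 3.59%, 3.62% and 7.10% in WT and 24.1%, 32.1% and 32.2% in nor-like1. In nor-like1 replicates 2 and 3 PMEU1 was thus close to PME1 in level per length, while in WT it stood far below it. Leaving out PME1 and PME2.1, the pectinesterases summed to 370, 384 and 570 FPKM in WT and 581, 837 and 861 FPKM in nor-like1. These sums still held PMEU1, and differed by little between WT replicate 3 and nor-like1 replicate 1. With PMEU1 left out as well, WT replicate 3 lay above nor-like1 replicate 1, so the genotypes overlapped.

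**Figure D1:**
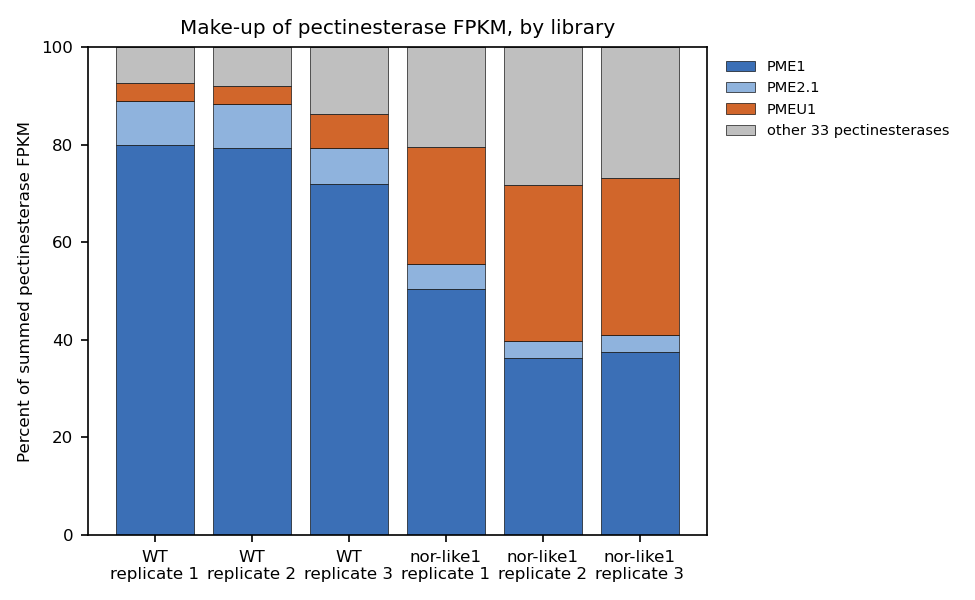
Percent of summed pectinesterase FPKM held by PME1, PME2.1, PMEU1 and the other 33 pectinesterases, with 1 bar per library. PME1 holds 72.0% or more in each WT library and 50.4% or less in each nor-like1 library, and PMEU1 at most 7.10% and at least 24.1%.

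The other 5 pectinesterases that rose were low in WT. Solyc11g005770.2 measured 5.26, 6.29 and 8.44 FPKM in WT and 26.8, 29.1 and 49.2 FPKM in nor-like1, with no overlap (log2 fold change 2.41, SE 0.289; adjusted p = 0.00469). Solyc06g009190.5 measured 3.63, 2.72 and 1.56 FPKM in WT and 8.45, 34.4 and 23.3 FPKM in nor-like1. The nor-like1 libraries all lay higher but far apart from each other (log2 fold change 3.08, SE 0.587; adjusted p = 0.0174), and the call was lost without WT replicate 2 (0.072) or without nor-like1 replicate 2 (0.0533) or 3 (0.0541). The remaining genes were below 1 FPKM in every WT library. Solyc05g047590.5 ranged from 0.5 to 0.74 FPKM in WT and from 1.49 to 3.33 FPKM in nor-like1 (log2 fold change 1.96, SE 0.361; adjusted p = 0.0124; 0.0563 without WT replicate 2). Solyc09g091730.5 ranged from 0.15 to 0.61 FPKM in WT and from 1.04 to 3.61 FPKM in nor-like1, on 17 and 84 counts (log2 fold change 2.83, SE 0.63; adjusted p = 0.022).

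Solyc09g075330.5 ranged from 0.06 to 0.82 FPKM in WT and from 1.78 to 5.73 FPKM in nor-like1, on 34 and 226 counts (log2 fold change 3.35, SE 0.795; adjusted p = 0.0317). Its neighbour Solyc09g075350.5 had 0 counts in WT and 19 in nor-like1, at 0.23 to 0.3 FPKM, and was not tested. The call for Solyc09g091730.5 was lost without replicate 1 or 2 of WT or replicate 2 of nor-like1 (adjusted p 0.0706 to 0.0869). That for Solyc09g075330.5 was lost without replicate 1 or 2 of WT or replicate 2 or 3 of nor-like1 (0.0535 to 0.113). Without WT replicate 3, which was the highest WT library for both genes, the log2 fold changes were 3.62 and 4.52.

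Many plant pectinesterases are made with an N-terminal region that resembles the inhibitors, and the best protein hit of some members carries both names. Of the 9 tested pectinesterases with such a hit, 4 rose, none fell and 5 did not pass. Of the 10 others, 2 rose, 4 fell and 4 did not pass. The split was made after the values had been seen, rests on names alone, and was not tested. A best hit without the second name does not show that the protein lacks the region.

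Among the 9 tested pectinesterases that did not pass, Solyc07g017600.3 had the highest level. It measured 17.0, 25.3 and 79.1 FPKM in WT and 37.8, 95.4 and 60.3 FPKM in nor-like1 (log2 fold change 0.71, SE 0.622; adjusted p = 0.444). WT replicate 3 overlapped the nor-like1 libraries, and without it the log2 fold change was 1.62 (adjusted p = 0.044). Solyc04g082140.3, described as a pectinesterase but with an L-ascorbate oxidase homolog as its best hit, behaved likewise, with 10.2, 19.2 and 81.3 FPKM in WT and 24.7, 41.2 and 38.2 FPKM in nor-like1. Its log2 fold change was -0.05 (SE 0.73; adjusted p = 0.967) with all libraries and 1.26 (0.0486) without WT replicate 3. Solyc03g123620.4, the neighbour of PMEU1, measured 16.1, 10.9 and 15.4 FPKM in WT and 9.16, 28.5 and 39.2 FPKM in nor-like1. Here nor-like1 replicate 1 lay below all WT libraries (log2 fold change 0.87, SE 0.498; adjusted p = 0.251), and without it the log2 fold change was 1.28 (0.0107). Solyc03g078090.4, below 2 FPKM in all libraries, gave 1.11 (SE 0.677; adjusted p = 0.274) on the log2 scale, and 2.11 without WT replicate 3. Solyc03g112960.1 and Solyc03g112970.1 each gave 0.98 on that scale (adjusted p = 0.118 each), and without WT replicate 3 they were called higher, at 1.39 (0.0374) and 1.45 (0.0295). Solyc03g083360.3 gave -0.81 (SE 0.291; adjusted p = 0.0912) and was called lower without WT replicate 1 (-1.03; 0.0467) and by DESeq2 (0.0355). The remaining 2, Solyc02g081990.3 and Solyc03g078100.3, gave 0.34 and 0.21.

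None of the pectinesterase inhibitors passed the test, and 5 of 16 could be tested. Their summed FPKM was 81.8, 73.3 and 108 in WT and 101, 134 and 127 in nor-like1, which overlap. The descriptions put them in a family that also inhibits invertase, and the best hit of 3 members named an inhibitor of invertase or fructosidase, so not all need act on pectinesterases. The most abundant, Solyc12g009270.1, measured 43.8, 31.0 and 52.3 FPKM in WT and 57.5, 65.5 and 51.4 FPKM in nor-like1 (log2 fold change 0.46, SE 0.197; adjusted p = 0.136). Solyc03g112990.1 measured 26.3 to 31.8 FPKM in WT and 23.8 to 31.4 FPKM in nor-like1 (log2 fold change -0.12, SE 0.143; adjusted p = 0.58).

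The other 3 tested inhibitors had larger log2 fold changes with larger SEs. Solyc07g042390.3 measured 5.24, 4.07 and 8.08 FPKM in WT and 8.43, 10.4 and 18.7 FPKM in nor-like1. The genotypes did not overlap, but the gap was small beside the spread (log2 fold change 1.09, SE 0.382; adjusted p = 0.0807). It was called on leaving out WT replicate 3 (0.0496) or nor-like1 replicate 1 (0.0474). Solyc11g019910.2 measured 1.39, 2.02 and 6.45 FPKM in WT and 3.14, 11.4 and 9.93 FPKM in nor-like1 (log2 fold change 1.31, SE 0.684; adjusted p = 0.209), and was called without WT replicate 3 (log2 fold change 2.24; 0.0414). Solyc06g034370.1 measured 0.37, 1.57 and 6.4 FPKM in WT and 2.23, 14.3 and 11.5 FPKM in nor-like1 (log2 fold change 1.75, SE 0.999; adjusted p = 0.25; 3.35 without WT replicate 3). In both of these genes WT replicate 3 lay above nor-like1 replicate 1.

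**Figure D2:**
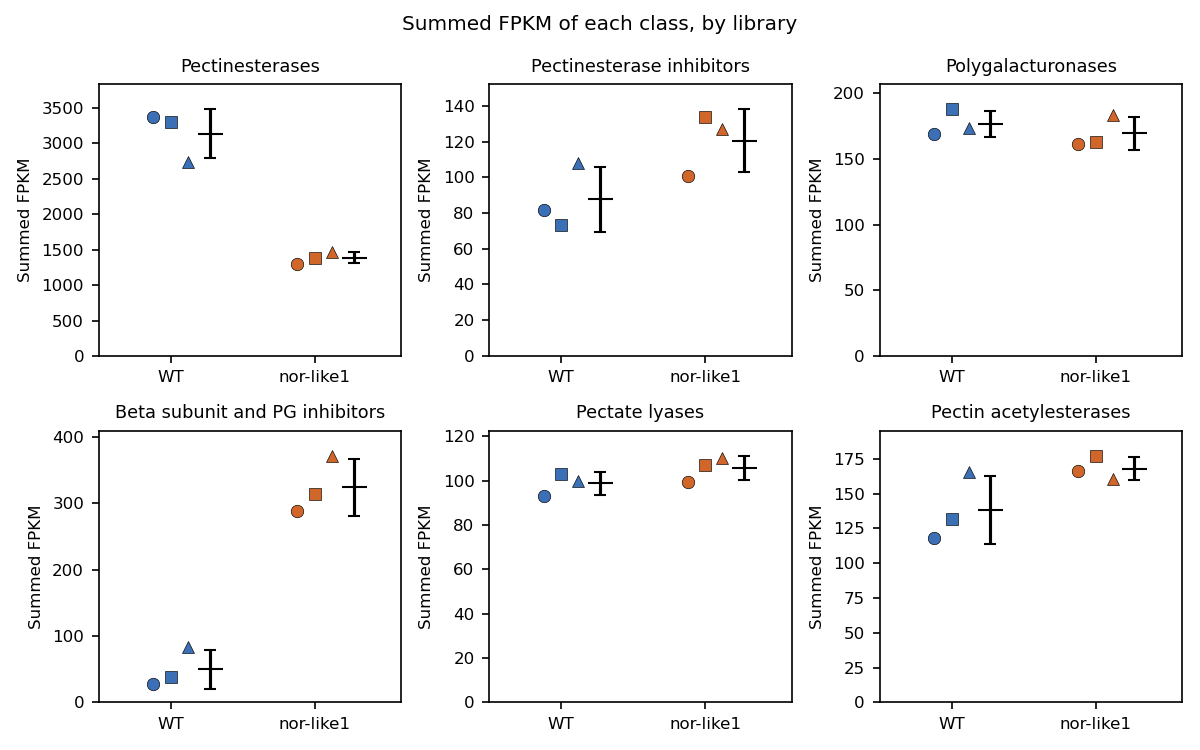
Summed FPKM of each class by library on linear axes from 0, with WT in blue, nor-like1 in orange and symbols for replicates 1 to 3 as circle, square and triangle. Black bars show the mean ± SD of 3 libraries; only the pectinesterases and the polygalacturonase partners separate widely, and the polygalacturonase and pectate lyase sums overlap.

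The summed FPKM of the polygalacturonases overlapped between the genotypes, at 169, 188 and 174 FPKM in WT and 161, 163 and 184 FPKM in nor-like1, while single genes changed in both directions. Of 29 genes 17 were tested, of which 2 rose, 3 fell and 12 did not pass, with a median log2 fold change of 0.17. Most members of the class, 26, are described only by the pectin lyase-like fold and were placed here by that description. The best protein hit of 25 of them named a polygalacturonase. The exception was Solyc04g025440.3, whose best hit was a pentatricopeptide protein and which did not pass (log2 fold change 0.13, SE 0.175; adjusted p = 0.631).

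Solyc05g049980.3, a probable polygalacturonase, measured 27.3, 34.5 and 23.6 FPKM in the WT libraries and 5.62, 5.53 and 7.26 FPKM in the nor-like1 libraries. All WT libraries lay well above all nor-like1 libraries, and the gene fell 4.70-fold (log2 fold change -2.23, SE 0.183; adjusted p = 0.00146). Solyc03g007940.5 measured 6.71, 8.28 and 5.82 FPKM in WT and 1.92, 1.75 and 2.01 FPKM in nor-like1, again without overlap (log2 fold change -1.85, SE 0.18; adjusted p = 0.00239). The most abundant polygalacturonase, Solyc09g075460.3, measured 44.2, 44.5 and 36.8 FPKM in WT and 30.1, 24.1 and 30.8 FPKM in nor-like1 (log2 fold change -0.54, SE 0.14; adjusted p = 0.0341). That call was lost without replicate 1 or 2 of WT or replicate 2 or 3 of nor-like1 (adjusted p 0.0713 to 0.116).

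The 2 polygalacturonases that rose were near 0 in WT. Solyc01g094970.4 measured 0.15, 0.3 and 0.75 FPKM in WT and 7.74, 6.2 and 14.8 FPKM in nor-like1, on 27 and 413 counts. Its log2 fold change of 4.57 (SE 0.581; adjusted p = 0.00564) was the largest among the tested members, and was 5.44 without WT replicate 3. Solyc08g081480.3 measured 0.97, 0.47 and 1.52 FPKM in WT and 4.69, 3.74 and 4.86 FPKM in nor-like1, with the genotypes well apart (log2 fold change 2.16, SE 0.373; adjusted p = 0.0104).

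Among the polygalacturonases that did not pass, Solyc08g082170.4 ranged from 20.5 to 26.0 FPKM in WT and from 23.0 to 33.8 FPKM in nor-like1 (log2 fold change 0.27, SE 0.168; adjusted p = 0.289). PGcat (Solyc08g060970.4) measured 5.23, 8.59 and 20.2 FPKM in WT and 23.9, 30.3 and 24.1 FPKM in nor-like1. The genotypes did not overlap, but WT replicate 3 lay close to the nor-like1 libraries (log2 fold change 1.19, SE 0.44; adjusted p = 0.103). Without WT replicate 3 the log2 fold change was 1.87 and the adjusted p 0.00234, and DESeq2 called the gene with all libraries (adjusted p = 0.015). The other 10 had log2 fold changes between -0.63 and 0.90.

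**Figure D3:**
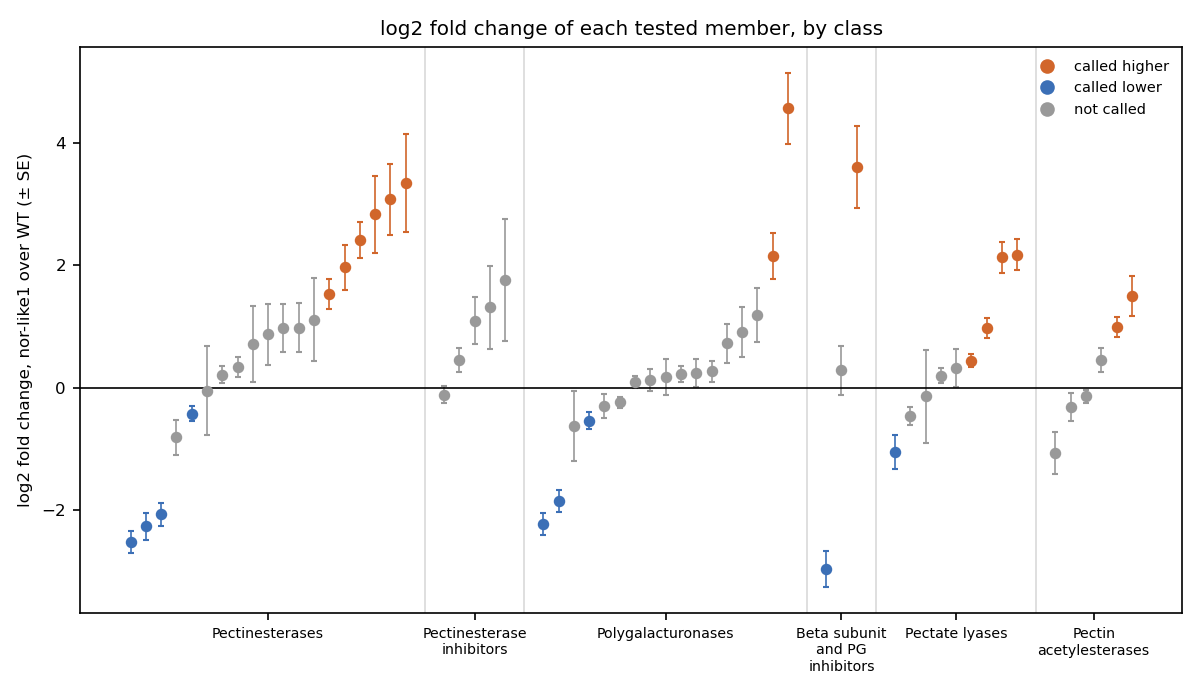
log2 fold change (nor-like1 over WT) of each of the 59 tested members, grouped by class and ordered within it; bars are ± SE from the edgeR fit. Orange marks members called higher, blue called lower and grey not called; every class except the inhibitors and the pectin acetylesterases holds both orange and blue points.

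Proteins that bind polygalacturonase showed changes in both directions. Polygalacturonase inhibiting proteins are leucine-rich repeat proteins of the wall that bind polygalacturonases, best known against those of fungi. One of them, Solyc09g014480.3, measured 8.19, 15.8 and 52.1 FPKM in the WT libraries and 276, 285 and 345 FPKM in the nor-like1 libraries. The nor-like1 libraries lay close together and far above WT, while the WT libraries spanned a wide range with replicate 3 the highest. Group means were 25.4 ± 23.4 and 302 ± 37.6 FPKM (SD, n = 3 each), a 12.2-fold rise (log2 fold change 3.61, SE 0.668; adjusted p = 0.016). Without WT replicate 3 the log2 fold change was 4.67 (adjusted p = 0.00112). The call was lost without WT replicate 2 (0.0689) or without nor-like1 replicate 2 (0.0524) or 3 (0.0502), while the log2 fold change stayed at 3.37 or more in those fits. The authors' deposited DESeq2 comparison gave this gene a smaller log2 fold change, 2.26. A related inhibitor, Solyc07g065090.2, measured 12.9, 14.96 and 24.3 FPKM in WT and 10.5, 27.1 and 24.8 FPKM in nor-like1, and did not pass (log2 fold change 0.28, SE 0.399; adjusted p = 0.642).

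AroGP3 (Solyc05g005540.5) belongs to the non-catalytic beta-subunit family, whose best-known tomato member binds polygalacturonase in the fruit wall. It measured 7.35, 7.1 and 6.84 FPKM in WT and 0.47, 1.13 and 1.06 FPKM in nor-like1. The WT libraries agreed closely and lay far above all nor-like1 libraries, a 7.81-fold fall (log2 fold change -2.96, SE 0.297; adjusted p = 0.00288). Its FPKM divides by a gene model of 6203 bases that also carries a proteasome annotation, so its level against other genes is uncertain. The counts are those of the whole model, so whether the fall is that of AroGP3 alone is uncertain too. Only 1 of the 4 proteins of this group, a further inhibiting protein, was too low to test.

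Pectate lyases cut de-esterified pectin with the help of calcium. Of 18 genes 9 were tested, of which 4 rose, 1 fell and 4 did not pass, and the median log2 fold change was 0.32. The class sums overlapped, at 93.2, 103 and 99.9 FPKM in WT and 99.5, 107 and 110 FPKM in nor-like1. Solyc02g093580.5 measured 1.21, 1.99 and 1.77 FPKM in WT and 7.11, 5.62 and 8.53 FPKM in nor-like1, with no overlap (log2 fold change 2.13, SE 0.249; adjusted p = 0.00359). Solyc09g091430.5 measured 0.53, 0.7 and 0.98 FPKM in WT and 3.29, 3.43 and 3.17 FPKM in nor-like1, also apart (log2 fold change 2.17, SE 0.256; adjusted p = 0.00364). Solyc11g008140.3 rose 1.97-fold, from 2.72, 2.62 and 3.07 FPKM to 6.01, 5.73 and 5.45 FPKM, with little spread in either genotype (log2 fold change 0.98, SE 0.162; adjusted p = 0.00924).

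The calls of another 2 pectate lyases depended on single libraries. Solyc09g005850.3 measured 16.3, 16.7 and 19.4 FPKM in WT and 21.7, 24.3 and 24.0 FPKM in nor-like1 (log2 fold change 0.44, SE 0.107; adjusted p = 0.0289). Solyc05g014000.5, which fell, measured 5.99, 4.18 and 5.45 FPKM in WT and 1.68, 3.24 and 2.5 FPKM in nor-like1 (log2 fold change -1.06, SE 0.277; adjusted p = 0.0351). Neither gene overlapped between the genotypes. The first call was lost without replicate 1 or 2 of WT or replicate 2 or 3 of nor-like1 (adjusted p 0.0876 to 0.109), and the second without replicate 1 or 2 of WT or replicate 1 or 3 of nor-like1 (0.0537 to 0.113). The most abundant, Solyc04g010230.4, measured 35.9, 41.7 and 32.6 FPKM in WT and 30.2, 22.6 and 25.7 FPKM in nor-like1. Its genotypes did not overlap, but it missed the threshold (log2 fold change -0.47, SE 0.147; adjusted p = 0.0594) and passed it without WT replicate 3 (0.0297) or nor-like1 replicate 1 (0.0388). Solyc06g083580.4 measured 22.9 to 26.9 FPKM in WT and 24.2 to 30.3 FPKM in nor-like1 (log2 fold change 0.20, SE 0.125; adjusted p = 0.293).

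Pectin acetylesterases held 2 genes that rose and none that fell among the 6 tested of 11, with a median log2 fold change of 0.15. Solyc10g038130.3 measured 10.5, 10.2 and 10.95 FPKM in WT and 16.7, 24.6 and 20.9 FPKM in nor-like1. All nor-like1 libraries lay above the tight WT values (log2 fold change 0.99, SE 0.158; adjusted p = 0.00818). Solyc10g086480.3 measured 0.31 to 0.54 FPKM in WT and 1.09 to 1.27 FPKM in nor-like1 (log2 fold change 1.49, SE 0.329; adjusted p = 0.0216). That call was lost without replicate 1 or 2 of WT or replicate 2 or 3 of nor-like1 (adjusted p 0.0604 to 0.0835).

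The class level was set by Solyc08g005800.4, at 53.6, 65.8 and 96.0 FPKM in WT and 92.9, 101 and 94.5 FPKM in nor-like1. WT replicate 3 lay among the nor-like1 values (log2 fold change 0.45, SE 0.197; adjusted p = 0.142), and without it the log2 fold change was 0.69 (0.0102). Next to it in the RefSeq annotation, Solyc08g005790.3 had 1 count in WT and 128 in nor-like1, most of them in replicate 1 (7.39, 0.5 and 1.06 FPKM), and was not tested. Solyc03g025600.3 measured 39.6 to 43.3 FPKM in WT and 36.2 to 40.2 FPKM in nor-like1 (log2 fold change -0.14, SE 0.105; adjusted p = 0.358). Solyc01g102350.3 measured 7.16, 8.39 and 9.97 FPKM in WT and 6.1, 3.54 and 2.17 FPKM in nor-like1. Its libraries did not overlap by genotype but it did not pass (log2 fold change -1.07, SE 0.345; adjusted p = 0.0678), while it was called lower without nor-like1 replicate 1 (-1.53; 0.0126) and by DESeq2 (0.0205).

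Of the 24 called members, 14 were called in each of the 6 fits that left out 1 library, and the other 10 lost the call in at least 1, all without a change of direction. The 14 were PME1, PME2.1, Solyc12g098340, PMEU1 and Solyc11g005770 among the pectinesterases, Solyc05g049980, Solyc03g007940, Solyc01g094970 and Solyc08g081480 among the polygalacturonases, AroGP3, the pectate lyases Solyc02g093580, Solyc09g091430 and Solyc11g008140, and the pectin acetylesterase Solyc10g038130. WT replicate 3 was the highest WT library in 12 of the 15 members that rose and the lowest in 8 of the 9 that fell, so it lay on the nor-like1 side in most of them. Low levels were common among the calls: 12 of the 24 had a mean below 10 FPKM and 7 of the 15 that rose had a WT mean below 1 FPKM.

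Other genes of the pectin pathway, listed by description, held 34 genes, of which 23 were tested, 3 rose, 2 fell and 18 did not pass. The share called was 21.7%, beside 21.9% of all genes tested, and the median log2 fold change was 0.01. The 5 calls became 2 without WT replicate 2, 3 without WT replicate 1 or without replicate 2 or 3 of nor-like1, and 7 without WT replicate 3, where Solyc03g121540.3 (-1.12; 0.0166) and Solyc06g062660.4 (0.51; 0.0163) were added. Beta-galactosidases, which trim galactan side chains of pectin, accounted for 13 of those tested and 4 of the calls. TBG6 (Solyc02g084720.3) rose from 8.11 ± 0.845 to 29.8 ± 6.19 FPKM (SD, n = 3 each; log2 fold change 1.91, SE 0.178; adjusted p = 0.0023), and TBG5 (Solyc11g069270.2) from 18.6 ± 4.76 to 31.8 ± 3.13 FPKM (adjusted p = 0.0322). Solyc11g018500.3 and Solyc01g110000.3 fell by 1.07 and 2.68 on the log2 scale (adjusted p = 0.00887 and 0.0158). The TBG5 call was lost on leaving out each library in turn, WT replicate 3 excepted (adjusted p 0.0505 to 0.0979), and that of Solyc01g110000.3 without WT replicate 2 (0.0528), and leaving out nor-like1 replicate 3 gave -3.46 on the log2 scale.

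Enzymes that make the sugar precursors held 1 call. Of 2 tested UDP-glucose 6-dehydrogenases, Solyc02g088690.5 passed only without nor-like1 replicate 1 (0.87; 0.0368) and Solyc03g115380.3 rose (log2 fold change 2.12; adjusted p = 0.0348; 3.03 without WT replicate 3) but lost the call without replicate 1 or 2 of WT or replicate 2 or 3 of nor-like1 (0.0932 to 0.118). None of 7 tested UDP-glucuronate 4-epimerases and not the 1 arabinofuranosidase passed. Galacturonosyltransferases, which build the pectin backbone, were added by their best hit after the data had been seen, and 1 of 21 tested passed (Solyc02g065530.5, log2 fold change 1.24; adjusted p = 0.00818), which is 4.76% beside the 21.9% of all genes tested. Without WT replicate 3, or without nor-like1 replicate 1, 4 of them passed. None of 3 tested rhamnogalacturonate lyases, added in the same way, passed. Of these, Solyc12g088050.2 measured 4.33, 6.26 and 12.1 FPKM in WT and 17.0, 17.9 and 16.8 FPKM in nor-like1. Its genotypes did not overlap (log2 fold change 1.22, SE 0.35; adjusted p = 0.0534), and it was called without WT replicate 3 (1.72; 0.0021).

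Values of the ripening enzymes left out of the set were as follows. PG2a (Solyc10g080210.2) measured 31.7, 1.86 and 0.54 FPKM in WT and 1.28, 0.35 and 0 FPKM in nor-like1, so its difference rested on WT replicate 1 (log2 fold change -4.30, SE 1.78; adjusted p = 0.133; -1.01 without that library). PL (Solyc03g111690.4) measured 3.82, 2.71 and 7.94 FPKM in WT and 18.5, 12.1 and 15.1 FPKM in nor-like1 (log2 fold change 1.67; adjusted p = 0.0308), and its call was lost on leaving out each library in turn, WT replicate 3 excepted (0.0638 to 0.089); without WT replicate 3 it gave 2.20 on the log2 scale.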

How the data were processed

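For each library the authors deposited expected counts, as RSEM estimates them, beside FPKM for every gene above 0, per the file headers. The submitters' processing notes name Bowtie2, HISAT2, RSEM and StringTie but no versions. Genome build, annotation and strandedness of counting: not given in the sources used here. A table of the authors' own DESeq2 comparison, per the file headers, holds log2 fold changes, p-values raw and adjusted, and a signal per genotype whose scale is not given.

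Members, classes and lists were chosen with earlier results of these data known. Genes missing from a library's table were set to 0. Expected counts were rounded and fitted for all genes in R 4.3.3 with edgeR 4.0.16, using filterByExpr, TMM scaling and a robust quasi-likelihood model of genotype alone. Adjusted p-values are Benjamini-Hochberg values of its quasi-likelihood F test over the 16380 genes tested, and genes were called below 0.05. The SE is the absolute log2 fold change over the square root of F. The script was tested on simulated data. FPKM, per length and per depth, gave the levels and class sums, which were not tested. A floor of 3 counts was 0.171 to 0.353 CPM, for counting error only. No 2 libraries of a genotype agreed within sampling noise (chi-square per gene 10.9 to 49.1).

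Genes named were every called member, the 3 most abundant members of each class, the 5 uncalled members with the largest log2 fold change, SlNOR-like1, PG2a and PL. Others in the text were chosen after their values were seen. Neighbouring genes came from RefSeq assembly SLM_r2.1, matched for 81 members, whose coordinates are not given because the builds may differ. Alternatives were upper-quartile factors, DESeq2 1.42.0, other filters, limma 3.58.1 on log2(FPKM + 1) and log2(FPKM + 0.1), thinned counts, a replicate block, a 2-fold minimum and each library left out.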

Additional observations from a re-analysis of the deposited data

How the results depend on the processing

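No called member changed direction under any alternative. Members called higher and lower numbered 15 and 8 with upper-quartile factors, 19 and 11 with DESeq2, 18 and 9 with no low-count filter, and 15 to 17 and 9 with limma on FPKM. The genes tested numbered 16380, 18740 and 21696 in the first 3 of these, and 17060 or 21708 with limma. Shares called over all genes are not given for these settings, so the counts are not read as a result about the members. Without 1 library, members called higher and lower ranged from 8 to 24 and from 6 to 10, and all genes called from 596 to 2352 and from 543 to 2390, both highest without WT replicate 3. Over those fits the called pectinesterases ranged from 5 to 15, inhibitors from 0 to 2, polygalacturonases from 4 to 6, their partners from 1 to 2, pectate lyases from 3 to 6, pectin acetylesterases from 1 to 3 and other pectin genes from 2 to 7. DESeq2 called 4 pectin acetylesterases, with Solyc01g102350.3 lower and the others higher. With at least 2-fold required, 897 genes were higher and 473 lower. The labels do not say whether replicate numbers pair the samples. Deviations of same-numbered libraries correlated at 0.222, -0.23 and 0.0177, and only number 1 correlated best with its own. With deviations taken from the mean of 3 libraries per genotype, these values cannot exclude an effect shared by libraries of a number. A replicate block called 15 members higher and 7 lower, 3 of them pectate lyases, and 1364 and 1262 of all genes. The block lost the calls of Solyc11g070175.1, Solyc09g075460.3, Solyc05g014000.5, Solyc09g005850.3 and Solyc09g091730.5 (edgeR adjusted p 0.0568 to 0.0955). It added Solyc03g083360.3 as lower, and Solyc03g112960.1 and Solyc12g009420.3 as higher (0.0212 to 0.0498). Limma on log2(FPKM + 1) shrinks changes of low genes, as for Solyc01g094970.4 (log2 fold change 2.86) and AroGP3 (-2.12). Of the 55 members left out by the low-count filter, DESeq2 and the fit without a filter each called Solyc08g005790.3, Solyc09g075350.5 and Solyc06g051960.3 higher.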

Other observations

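In the authors' deposited table all 114 members were listed, 19 higher and 11 lower in nor-like1 at an adjusted p below 0.05. The share of all genes below that threshold in the authors' table was not taken, so these counts are not read as a result about the members. All 24 members called here were among them with the same sign. That table is of the same series, so this is not separate evidence. For tested members, the log2 fold change of the authors' deposited table minus that of edgeR had a median of -0.018 and ranged from -1.35 to 0.234. The lowest difference was that of the polygalacturonase inhibiting protein Solyc09g014480.3, at 2.26 in the authors' table.

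In the RefSeq annotation, 19 members lay in 9 runs of neighbours with at most 3 genes between them. One run held PME1, PME2.1 and PME3, and another held PMEU1 with Solyc03g123620.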
